A study of Homo sapiens with 6 samples.

Results

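The mRNAs of 9 genes of the tight junction were followed after knockdown of Matrin3, a nuclear protein that binds RNA and DNA: the claudins CLDN1, CLDN3, CLDN4, CLDN7 and CLDN12, occludin (OCLN), the junctional adhesion molecule F11R, and the scaffolds TJP1 and TJP3. They were chosen by symbol, with earlier results of these data known. All 9 were matched by Ensembl gene ID among the 56632 genes of the deposited tables. All 9 passed the filter on low counts. The IDs are ENSG00000163347 for CLDN1, ENSG00000165215 for CLDN3, ENSG00000189143 for CLDN4, ENSG00000181885 for CLDN7, ENSG00000157224 for CLDN12, ENSG00000197822 for OCLN, ENSG00000158769 for F11R, ENSG00000104067 for TJP1 and ENSG00000105289 for TJP3. The cells were HCT116, an established human colorectal cancer line, transfected in 2 rounds with a pool of siRNAs against Matrin3 (siMatrin3) or with an unrelated negative control siRNA (siCTRL), with the second round 72 hours after the first. The sources differ on the time of harvest: the labels give a further 48 hours, and the methods have reseeding at that time and RNA taken 3 days after the second round. Poly(A) RNA of 3 libraries per group was sequenced, with 40808173 to 54185650 expected counts (RSEM's estimated read counts) per library. The libraries are described as biological triplicates, and whether each came from its own culture is not given in the sources used here, so p-values measure the spread between these libraries. A knockdown by an siRNA pool is partial and transient, and effects of the reagents apart from Matrin3 were not tested.

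Tight junctions seal the space between neighbouring epithelial cells and separate the apical from the basolateral membrane. Claudins are four-pass membrane proteins that form the strands and set which ions pass between cells, occludin and its relatives organise the strands, and junctional adhesion molecules sit beside them. The ZO scaffolds encoded by TJP1 and TJP3 bind the tails of claudins and tie the strands to actin. In the gut epithelium, CLDN3, CLDN4 and CLDN7 belong to the sealing claudins, and CLDN2 and CLDN15 form pores for cations.

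The knockdown was checked first. MATR3 was at 186, 180.2 and 176 TPM (a level per transcript length, with equal totals across libraries) in siCTRL replicates 1, 2 and 3, and at 95.2, 112 and 111 TPM in siMatrin3 replicates 1, 2 and 3, which is -0.93 ± 0.0647 (SE) on the log2 scale (edgeR, adjusted p = 7.67e-05). The labelled epithelial origin was also checked: of 10 epithelial and intestinal markers, 6 reached 1 TPM in every library, among them EPCAM, KRT8, KRT18 and CDH1, while KRT20, VIL1 and LGALS4 had means below 1 TPM and TFF3 was at 0 in all libraries. The summed level of these 10 markers was 2950 to 3100 TPM in siCTRL and 2690 to 2920 TPM in siMatrin3, and the part of this in the results was not tested. KRT8 and KRT18 were the highest of the 10, with means of 1235 and 1007 TPM in siCTRL and 1125 and 897 TPM in siMatrin3. Of the 8 markers tested with edgeR, 5 had a positive log2 fold change and 3 a negative one (median 0.036). Of 13 markers of fibroblasts, endothelium and immune cells found in the tables, 3 reached 1 TPM in every library (COL1A1, CD68 and ESAM), and COL1A2, DCN and PTPRC were at 0 in all libraries. Their summed level was 31.7 to 36.9 TPM in siCTRL and 30.4 to 37.7 TPM in siMatrin3. In bulk RNA, fewer cells with a message and less of it per cell cannot be told apart.

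Of the 9 genes, 1 was called lower in siMatrin3 and 0 higher at an adjusted p under 0.05 (edgeR's quasi-likelihood test, Benjamini-Hochberg adjusted over all 16786 genes tested), and 4 had an unadjusted p under 0.05, as did 4364 of the 16786 genes. The background is 11.0% of all genes tested called in either direction, made up of 5.97% lower and 5.05% higher, so that 1 of 9 is close to the share of all genes. The gene called was CLDN1, which was barely detected. The other 8 genes did not pass, with log2 fold changes between -0.22 (CLDN3) and 0.03 (CLDN7). Their 95% intervals lay between -25.4% and 8.2%. The median log2 fold change of the 9 genes was -0.09, beside -0.001 over all genes tested.

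**Figure D1:**
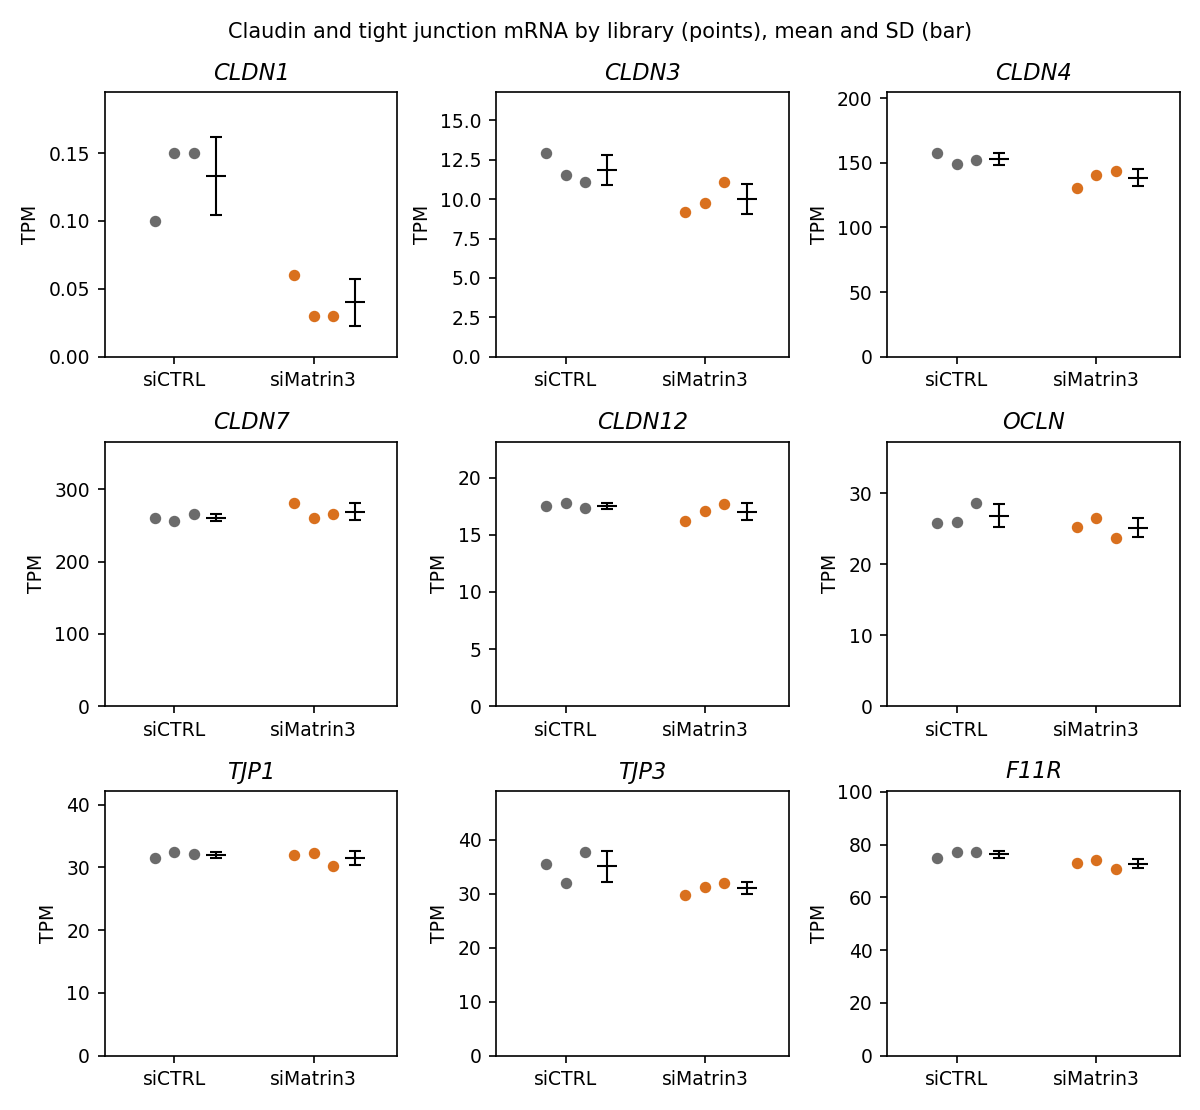
TPM (y axis, from 0) of the 9 genes in each library of siCTRL (grey points) and siMatrin3 (orange points), beside a dash and bar for their mean ± SD (n = 3). CLDN4 lies lower in all 3 siMatrin3 libraries (131 to 144 TPM against 149 to 158), while CLDN7, CLDN12 and TJP1 overlap between the groups, and CLDN1 stays at or below 0.15 TPM throughout.

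The levels of the 9 genes in siCTRL spanned more than 3 orders of magnitude per length. CLDN7 was highest, at a mean of 261 ± 4.91 TPM (SD, n = 3), followed by CLDN4 at 153 ± 4.33 TPM and F11R at 76.4 ± 1.31 TPM. Then came TJP3 at 35.1 ± 2.84 TPM, TJP1 at 32.0 ± 0.47 TPM and OCLN at 26.9 ± 1.59 TPM, of which TJP3 and TJP1 overlapped over the siCTRL libraries. CLDN12 at 17.6 ± 0.249 TPM, CLDN3 at 11.8 ± 0.968 TPM and CLDN1 at 0.133 ± 0.0289 TPM closed the order. CLDN7 exceeded 98.1% of all tested genes by its mean siCTRL level, CLDN4 96.5% and F11R 92.1%, whereas CLDN1 exceeded 1.28%. Replicates were close: apart from CLDN1, the coefficient of variation of TPM was 1.42% to 8.18% within siCTRL and 2.32% to 9.56% within siMatrin3.

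Sequence before the transcription start is shown for claudins at both ends of this range, to set the message levels beside the promoter composition. The stretch of CLDN7 runs on to position 4 after the start. RefSeq windows of 300 bases (250 before the start and 50 after it, GRCh38.p14) were found for 8 of the 9 genes, F11R not being among them, 14 windows in all. On either strand, CACCTG, the E-box that SNAI and ZEB repressors bind, was present in windows of 5 of the 8 genes, and in 20.6% of all 35114 such windows. GGGCGG, the GC box of SP and KLF factors, was present for 7 of the 8 genes and in 45.0% of all windows, TATAAA for 0 of the 8 and in 11.5%, and the grainyhead consensus AACCGGTT for 0 of the 8 and in 0.134%. Several genes have more than 1 window, so these shares are not like for like. In the sequences below, read in the direction of transcription, capitals mark matches to the E-box or the GC box on either strand. CLDN1 and CLDN3 are given as the 250 bases before the start, CLDN1 at chr3:190322447-190322696 and CLDN3 at chr7:73770271-73770520, both on the minus strand. CLDN4 is given as the 30 bases around its single GC box at chr7:73830937-73830966 on the plus strand, and CLDN7 as the 30 bases around the pair of E-boxes next to its second start at chr17:7262475-7262504 on the minus strand.
CLDN1: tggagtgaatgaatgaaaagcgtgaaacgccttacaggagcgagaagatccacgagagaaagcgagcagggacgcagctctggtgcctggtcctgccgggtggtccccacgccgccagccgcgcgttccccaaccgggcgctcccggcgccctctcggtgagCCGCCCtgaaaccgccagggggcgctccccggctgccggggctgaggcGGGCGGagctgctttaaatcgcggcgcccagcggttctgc
CLDN3: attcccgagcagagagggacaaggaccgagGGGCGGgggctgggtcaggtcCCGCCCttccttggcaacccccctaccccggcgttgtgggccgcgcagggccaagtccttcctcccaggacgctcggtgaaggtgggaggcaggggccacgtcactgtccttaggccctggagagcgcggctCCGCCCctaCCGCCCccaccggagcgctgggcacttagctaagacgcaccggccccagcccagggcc
CLDN4: ctccctctgcccCCGCCCctctgccagagc
CLDN7: tatactCAGGTGcgcccCACCTGtCCGCCC
The barely detected CLDN1 and the moderate CLDN3 both have windows rich in G and C (67.0% and 72.0%, against a median of 58.7% over all windows), with 2 and 6 GC boxes in the full 300 bases. The GC boxes of CLDN3 at positions 14 and 18 after the start overlap each other and lie beyond the bases printed. CLDN4, whose level was 12.2 to 13.8 times that of CLDN3 in siCTRL, had 59.0% G and C and 1 GC box. The second window of CLDN7, the highest of the 9 genes, had 71.7% G and C and held 5 E-boxes and 2 GC boxes. Its first window (60.0% G and C) held 0 of either. The windows of CLDN1 and CLDN4 held 0 E-boxes. A match is a description of these letters and not a bound site.

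CLDN4, a sealing claudin and, with CLDN3, a receptor of Clostridium perfringens enterotoxin, was at 158, 149 and 152 TPM in siCTRL replicates 1, 2 and 3, and at 131, 141 and 144 TPM in siMatrin3 replicates 1, 2 and 3. The groups did not overlap, and siMatrin3 replicate 1 was the lowest of the 6. The log2 fold change of -0.13 (SE 0.0453, 95% interval -0.23 to -0.03) did not pass (edgeR adjusted p = 0.0968), and DESeq2 gave the same fold with an adjusted p of 0.0484. CLDN3 was at 12.9, 11.5 and 11.1 TPM in siCTRL and at 9.21, 9.78 and 11.1 TPM in siMatrin3, so that siMatrin3 replicate 3 equalled the lowest siCTRL library. Its log2 fold change was -0.22 (95% interval -0.42 to -0.02, edgeR adjusted p = 0.148).

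CLDN7, which binds EPCAM at the lateral membrane, was at 261, 256 and 266 TPM in siCTRL and at 282, 259.97 and 266 TPM in siMatrin3, and the groups overlapped. Its log2 fold change was 0.03 (95% interval -0.06 to 0.11, edgeR adjusted p = 0.707), or -3.96% to 8.2%. In each library the level of CLDN7 could also be set against that of CLDN4, a ratio on which the scaling between libraries has no bearing. It was 1.66, 1.72 and 1.74 in siCTRL and 2.15, 1.85 and 1.85 in siMatrin3 on the TPM scale, and 1.13, 1.19 and 1.18 against 1.40, 1.28 and 1.22 on the scale of expected counts. The ratio was higher in all 3 siMatrin3 libraries on both scales, by a narrow gap on counts (1.22 against 1.19). It was computed after the values were seen and was not tested. How often other gene pairs separate in this way was not examined.

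CLDN12, a claudin that lacks the tail motif by which most claudins bind PDZ domains, was at 17.5, 17.8 and 17.3 TPM in siCTRL and 16.3, 17.1 and 17.7 TPM in siMatrin3 (log2 fold change -0.02, 95% interval -0.10 to 0.06, edgeR adjusted p = 0.769). Its exons overlap those of CDK14, GTPBP10 and PTTG1IP2 on the same strand in the annotation used for names. CDK14 was called lower (log2 fold change -0.31, edgeR adjusted p = 0.0302) and GTPBP10 was not (-0.11), and how reads of CLDN12 were divided among them was not tested.

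CLDN1, a barrier claudin abundant in skin, was at the limit of detection. It had 15, 17 and 19 expected counts in siCTRL replicates 1, 2 and 3 (0.1, 0.15 and 0.15 TPM) and 9, 3 and 4 in siMatrin3 replicates 1, 2 and 3 (0.06, 0.03 and 0.03 TPM). The groups did not overlap, and the log2 fold change was -1.66 (SE 0.405, 95% interval -2.56 to -0.76, edgeR adjusted p = 0.0269). Summed over libraries, 51 counts in siCTRL and 16 in siMatrin3 give a ratio of 0.312 once divided by the total counts of each group (exact 95% interval 0.166 to 0.555, for counting error only). CLDN1 exceeded the filter's level of 0.213 CPM (counts scaled by library size alone) in its 3 siCTRL libraries and in 0 siMatrin3 libraries, so it was tested through the group where it was high, and its call lends no weight to the group of genes. The call was lost without siCTRL replicate 2 or 3 or without siMatrin3 replicate 2 or 3 (edgeR adjusted p of 0.0683, 0.0932, 0.097 and 0.117), and DESeq2 gave no adjusted p at these counts.

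**Figure D2:**
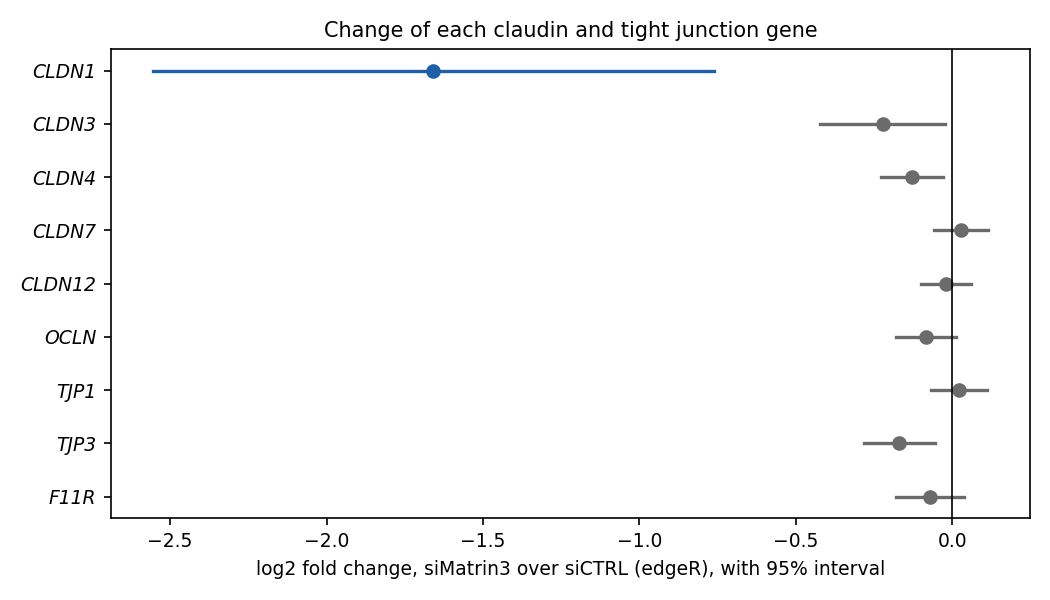
Log2 fold change of each of the 9 genes, siMatrin3 over siCTRL (x axis), with the edgeR estimate as a point and its 95% interval as a line, blue for the gene past the threshold and grey for the others. CLDN1 stands apart at -1.66 with the widest interval, and the other 8 estimates lie between -0.22 and 0.03.

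Occludin and F11R are the transmembrane proteins among the 9 genes outside the claudin family. OCLN was at 25.9, 26.0 and 28.7 TPM in siCTRL and at 25.3, 26.5 and 23.7 TPM in siMatrin3, with overlap between the groups in TPM though not in CPM (log2 fold change -0.09, 95% interval -0.18 to 0.01, edgeR adjusted p = 0.243). OCLN has an annotated partial copy, OCLNP1, listed at 1.07 to 2.5 TPM, so part of its reads may have been divided between the genes by the authors' counting. F11R, which encodes JAM-A, was at 74.9, 77.2 and 77.1 TPM in siCTRL and at 73.2, 74.1 and 70.8 TPM in siMatrin3. The siMatrin3 values were the 3 lowest in TPM but not in CPM, and the log2 fold change was -0.07 (95% interval -0.18 to 0.04, edgeR adjusted p = 0.394). An annotated gene that shares exons with F11R on the same strand was not analysed here.

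TJP1, which encodes ZO-1, was at 31.5, 32.4 and 32.1 TPM in siCTRL and at 31.9, 32.3 and 30.3 TPM in siMatrin3, with overlap (log2 fold change 0.02, 95% interval -0.07 to 0.11, edgeR adjusted p = 0.789). The sign of this value was negative on the length-adjusted scales, at -0.01 with an offset for transcript length and -0.02 with limma on TPM. TJP3, which encodes ZO-3, was at 35.4, 32.1 and 37.7 TPM in siCTRL and at 29.8, 31.2 and 32.1 TPM in siMatrin3. The highest siMatrin3 and the lowest siCTRL library were 0.01 TPM apart, and the log2 fold change was -0.17 (SE 0.0512, 95% interval -0.28 to -0.06, edgeR adjusted p = 0.0606). TJP3 passed in 5 of 15 alternatives, among them without siCTRL replicate 2 (log2 fold change -0.21, edgeR adjusted p = 0.039). TJP3 and CLDN7 each overlap a gene on the opposite strand (APBA3 at -0.07 and ELP5 at 0.12 on the log2 scale, neither called), and CLDN7 also shares exons with a protein-coding gene on its own strand, ENSG00000262302. How reads were divided among them was not tested, and whether the counting used strand is not given in the sources used here. The difference between TJP3 and TJP1 in response to siMatrin3 was not tested.

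Across the 9 genes, 4 had siMatrin3 libraries that were all below the siCTRL libraries in TPM (CLDN1, CLDN4, TJP3 and F11R), 44.4% of the genes against a background of 15.2% of genes tested, and 0 had them all above, against a background of 9.99%. In either direction the background was 25.1%. The list is short and was chosen with earlier results of these data known, so nothing is read from this share. CLDN1 passed the filter through siCTRL alone, TJP3 was separated by 0.01 TPM, and F11R overlapped between the groups in CPM.

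Genes with several transcripts can shift between them with no change in their total. RSEM's transcript length, which is weighted by the estimated abundance of a gene's transcripts, was tested with limma for the 7 genes where it varied and that had at least 50 expected counts in every library. TJP1, with 12 annotated transcripts in the tables, had a weighted length of 5504, 5243 and 5277 bases in siCTRL and of 5422, 5315 and 5546 bases in siMatrin3, and CLDN7 had 1427, 1424 and 1392 bases in siCTRL and 1362, 1420 and 1362 bases in siMatrin3. The groups overlapped for both. Of the 7, 0 were called (limma, smallest adjusted p = 0.925), and 0 had an unadjusted p under 0.05. Their log2 differences lay between -0.04 and 0.02, and the 95% intervals between -0.13 and 0.10. The background was 0.00834% of 11987 genes called, and 730 genes had an unadjusted p under 0.05, so this measure called few genes in these libraries. CLDN3 has 1 transcript and the weighted length of CLDN1 was the same in all libraries.

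The claudin family was then described as a whole. Of 24 claudin genes in the tables, 5 reached 1 TPM in every library (CLDN7, CLDN4, CLDN12, CLDN15 and CLDN3), 18 stayed below 1 TPM in every library, and 5 of these were at 0 throughout. The summed claudin level was 465, 451 and 463 TPM in siCTRL and 456, 445 and 457 TPM in siMatrin3. CLDN7 and CLDN4 together made up 89.7% to 90.4% of it in siCTRL and 89.8% to 90.5% in siMatrin3. CLDN15, a cation pore claudin and no member of the 9, was at 12.6, 13.6 and 12.6 TPM in siCTRL and at 14.5, 14.3 and 14.9 TPM in siMatrin3, and was called higher, by 0.20 on the log2 scale (SE 0.0502, edgeR adjusted p = 0.0288). This call was lost in 9 of 15 alternatives, DESeq2 among them. CLDN2, another pore claudin, had means of 0.77 and 0.423 TPM and did not pass (log2 fold change -0.85, edgeR adjusted p = 0.061).

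**Figure D3:**
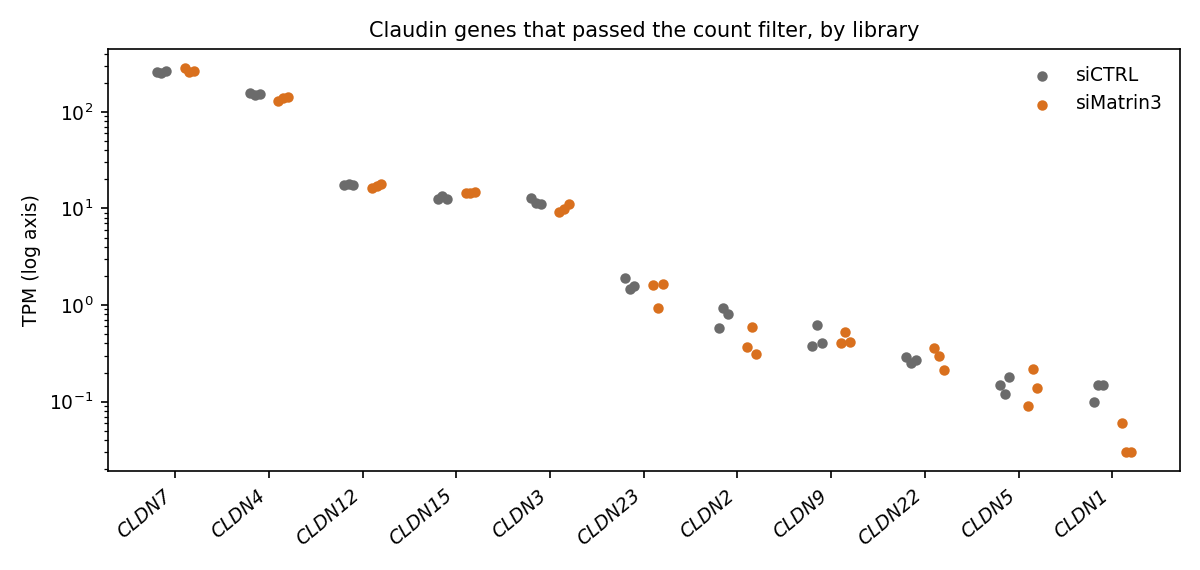
TPM on a log axis (y) of the 11 claudin genes that passed the filter on low counts (x), with a point for each library of siCTRL (grey) and siMatrin3 (orange). CLDN7 and CLDN4 lie above 100 TPM, CLDN12, CLDN15 and CLDN3 near 10 to 20, and the remaining claudins, CLDN1 lowest, at or below 1.92 TPM.

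Partners of the 9 genes were taken from 6 lists: other transmembrane tight junction proteins, plaque and scaffold proteins, polarity complexes, adherens junction and desmosome proteins, regulators of assembly and turnover, and transcription factors of the epithelial junction program. Of 126 such genes tested, 5 were higher and 15 lower in siMatrin3, 15.9% called against the background of 11.0%, with a median log2 fold change of -0.02. Some core proteins of the junction were not called, while others, CTNNA1, PKP2 and PERP among them, were called lower. Those named next were chosen after their values were seen. The tricellular proteins MARVELD2 and LSR and the adhesion receptor CXADR had log2 fold changes of 0.02, -0.08 and 0.07 and did not pass, nor did CDH1, the adhesion molecule E-cadherin, at -0.02.

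Among 16 tested transmembrane proteins, 1 was higher (CLDN15) and 3 lower, 25.0% called against 11.0% of all genes tested. The 3 were BVES, an adhesion protein of the Popeye family, at -0.74 on the log2 scale, with means of 1.23 ± 0.0513 in siCTRL and 0.75 ± 0.122 TPM in siMatrin3 (SD, n = 3, edgeR adjusted p = 0.00335), ILDR2 at -0.65 and ESAM, best known from endothelium, at -0.35, all below 5 TPM. The count of 4 transmembrane genes called was 2 with DESeq2, 1 with an offset for transcript length and 0 with limma on TPM. It was 1 to 3 with a library left out, and 6 with no filter on low counts or with the replicate block. Among 22 plaque and scaffold genes, 0 were higher and 1 lower (4.55% called, below the share of all genes). The 1 was CGNL1, which encodes paracingulin, at -0.48 on the log2 scale (edgeR adjusted p = 0.00493). Its means were 1.76 ± 0.0924 TPM in siCTRL and 1.25 ± 0.0721 TPM in siMatrin3. Among 22 polarity genes, 0 were higher and 2 lower, PARD6A at -0.56 and PARD3B at -0.66 (9.09% called, close to the share of all genes). PARD3B was the same in both groups in TPM (means of 0.54), and with a transcript length offset its log2 fold change was -0.01.

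In the list of adherens junctions and desmosomes 5 of 21 were lower and 0 higher (median log2 fold change -0.02). This is 23.8% called against 11.0% of all genes tested. The count fell to 3 without siCTRL replicate 1, siCTRL replicate 3 or siMatrin3 replicate 3. It was 2 with an offset for transcript length and 1 with limma on TPM. PKP4, a catenin relative of cell contacts, was at 25.3, 23.7 and 25.2 TPM in siCTRL and at 17.1, 18.4 and 18.1 TPM in siMatrin3 (-0.43 on the log2 scale, SE 0.0457, edgeR adjusted p = 0.000571). The groups did not overlap, and the call held in all 15 alternatives. PLEKHA7, which anchors microtubules at adherens junctions, was at -0.54, the desmosomal plakophilin PKP2 at -0.29 and PERP, a desmosome-associated p53 target, at -0.26 on the log2 scale. CTNNA1, alpha-catenin, which links E-cadherin to actin, was at -0.16 (edgeR adjusted p = 0.0334), from 167 ± 5.79 to 145 ± 6.7 TPM.

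Of 26 regulators, 1 was higher and 3 lower (15.4% called, against 11.0% of all genes tested). MAPK15, an atypical MAP kinase, was at 39.7, 43.8 and 38.4 TPM in siCTRL and at 52.3, 48.1 and 57.1 TPM in siMatrin3 (log2 fold change 0.38, edgeR adjusted p = 0.00391), and PRKCA, a protein kinase C, SHROOM3, an apical constriction factor, and MYLK, myosin light chain kinase, were at -0.35, -0.23 and -0.33. Of 19 transcription factors, 3 were higher and 1 lower (21.1% called, against the same 11.0%). The count of 4 factors called was 2 with limma on TPM or without siMatrin3 replicate 2. It was 1 without siCTRL replicate 3 or siMatrin3 replicate 3, and 5 with no filter on low counts or with the replicate block. KLF5, a factor of the proliferating gut epithelium, was at 36.3, 38.1 and 38.6 TPM in siCTRL and at 45.4, 44.5 and 45.9 TPM in siMatrin3 (log2 fold change 0.29, edgeR adjusted p = 0.00399). GRHL3, a grainyhead factor of epithelial barriers, was higher by 1.03 on the log2 scale at 0.46 ± 0.0872 against 0.937 ± 0.142 TPM. The claudin repressor SNAI1 was at 0.21, a call lost in 14 of 15 alternatives, and its relative SNAI2 at -1.36, from 0.553 ± 0.136 to 0.203 ± 0.0153 TPM.

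Among the 126 partner genes tested, SNAI2 had the profile nearest to that of CLDN1, with a root mean square difference of 0.278 in log2 CPM minus the siCTRL mean over the 6 libraries, followed by PARD3B at 0.617. This measure mainly matches fold changes, SNAI2 had the lowest of the 126 at -1.36, both genes had few counts, and CLDN1 was tested through siCTRL alone, so nothing is read from this likeness. Of the epithelial markers, KRT18, a keratin of simple epithelia, was the 1 called of 8 tested, at -0.15 (12.5%, close to the 11.0% of all genes). Several of the genes named here overlap an annotated gene on the opposite strand, BVES, CGNL1, CTNNA1, MAPK15, MYLK, PKP4, PLEKHA7, SHROOM3, SNAI2 and KRT18 among them. PKP2 overlaps an annotated gene on its own strand. Of the 21 genes called outside the 9, PKP4, MAPK15 and KLF5 kept their call in all 15 alternatives. BVES, CGNL1, PKP2 and PRKCA lost it with limma on TPM, and PLEKHA7 also with an offset for transcript length. The other 13, among them CLDN15, SNAI2 and CTNNA1, lost it without siCTRL replicate 3 and also without siMatrin3 replicate 3.

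**Figure D4:**
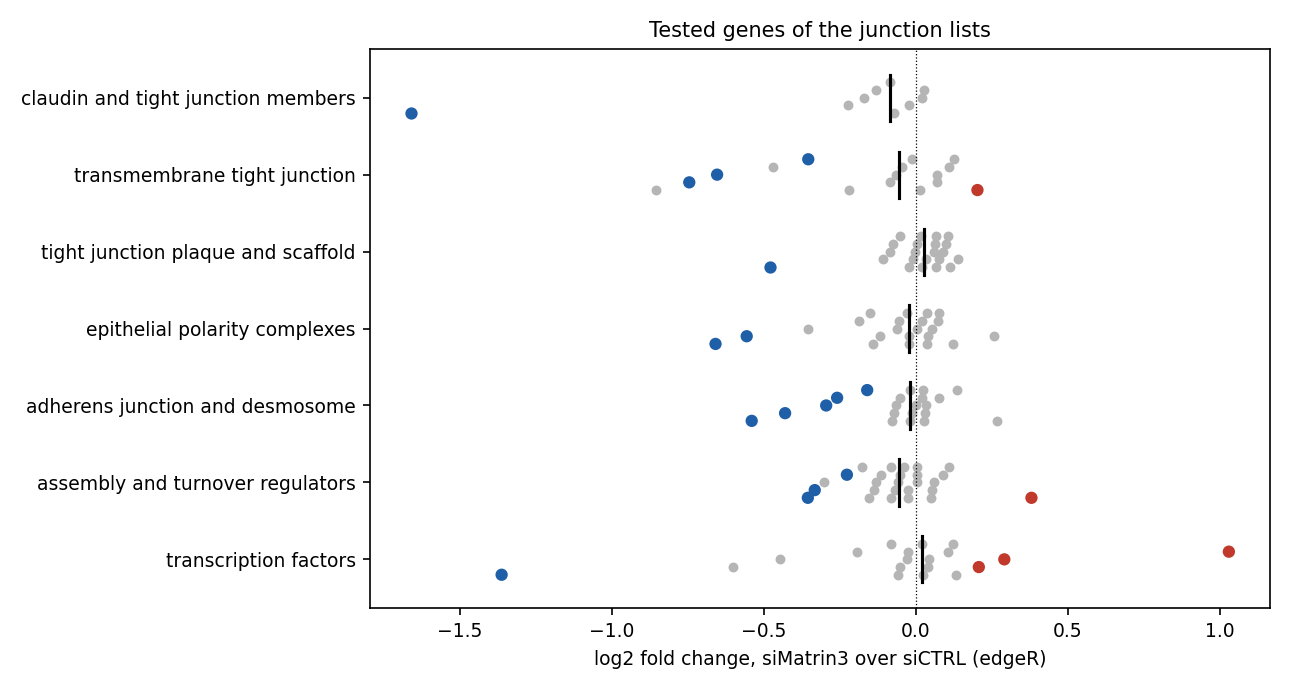
Log2 fold change (x axis, siMatrin3 over siCTRL, edgeR) of every tested gene of the 9 tight junction genes (top row) and of the 6 partner lists, with called genes in blue (lower) or red (higher), others in grey, and a black line at the median of each list. The medians lie between -0.09 and 0.03, and the lowest points are CLDN1 at -1.66 and SNAI2 at -1.36.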

How the data were processed

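The 6 poly(A) libraries were grouped by their labels, 3 as siCTRL and 3 as siMatrin3. According to the methods, stranded paired reads were aligned to hg19 with STAR and quantified with RSEM, and the submitters' processing notes name cutadapt and STAR 2.5.1. Per library, the authors deposited expected counts (RSEM's estimated counts), TPM, FPKM and transcript lengths. The deposited FPKM column (reads per length and depth) was left out. Gene names came from GENCODE release 44, and no coordinates of the genes are given because it is on another build (promoter windows are RefSeq's, on GRCh38.p14). The 56632 genes of the tables had a symbol in 88.3% of cases.

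Rounded expected counts passed filterByExpr and TMM scaling before the quasi-likelihood test of edgeR 4.0.16 in R 4.3.3 (no covariates, two-sided), adjusted over 16786 genes, with 0.05 as the threshold. The standard error and the 95% interval follow from the F statistic and its degrees of freedom. Weighted length was tested with limma 3.58.1 on log2 length. Alternatives were RLE and upper quartile scaling, 2 other filters, the replicate number as a block, each library left out, a transcript length offset, limma on TPM in log2 with 1 or 0.1 added, DESeq2 1.42.0, a threshold of 0.01, and count minimums of 20 and 200 for length. The study used DESeq2. The fits were tested on simulated data first.

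The members and lists were chosen with earlier results of these data known. Named genes are all 9 members, every called gene of a list (no list had over 5), and the partner nearest in profile to the called member. Other genes named with values (MARVELD2, LSR, CXADR, CDH1, CLDN2, CDK14, GTPBP10, OCLNP1, APBA3, ELP5) and the second nearest partner were chosen after their values were seen.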

Additional observations from a re-analysis of the deposited data

How the results depend on the processing

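The count of tight junction genes called, 1 of 9, was 2 with upper quartile scaling, no filter on low counts or the replicate block (TJP3 joining CLDN1), 0 with an offset for transcript length, limma on log2(TPM + 1) or log2(TPM + 0.1), or a threshold of 0.01, and 0 to 1 with a library left out (0 without siCTRL replicate 3, siMatrin3 replicate 2 or siMatrin3 replicate 3). No alternative called any of the 9 higher. CLDN1 was removed by the filter of 1 CPM in 3 libraries, where TJP3 was the call. Without siCTRL replicate 2 the call was also TJP3 and not CLDN1. With DESeq2 CLDN4 was the call. Of the 9 genes, 7 kept their sign in all alternatives that gave a value, and TJP1 and CLDN7, both near 0, did not. The weighted length had 0 calls among the 7 genes tested and under its alternatives, which says nothing about stability because the measure called 1 of 11987 genes.

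Over all genes tested, 1849 were called, 706 with the length offset, 437 and 429 with limma on log2(TPM + 1) and log2(TPM + 0.1), 561 at the threshold of 0.01, and 759 to 1599 with a library left out (759 without siMatrin3 replicate 3, 770 without siCTRL replicate 3 and 1014 without siMatrin3 replicate 2). The partner genes, 20 called, had 9 with the length offset, 4 with limma at either pseudocount, 8 at the threshold of 0.01, and 8 to 20 with a library left out, 8 without siMatrin3 replicate 3, 9 without siCTRL replicate 3 and 12 without siCTRL replicate 1. The cause was not tested. Upper quartile scaling moved the split of calls to 636 higher and 1146 lower, from 847 and 1002.

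The labels number the replicates and do not say whether equal numbers pair the libraries. Deviations of same-numbered libraries correlated at 0.177, 0.09 and 0 across genes, which does not settle it. With the replicate block 2716 genes, 29 partner genes and 2 of the 9 were called, and libraries 1 and 2 of each group correlated best with their own number while those numbered 3 did not. No filter on low counts gave 2595 and 28. Depth limits CLDN1, at 3 to 19 counts per library.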
